A study of Homo sapiens with 7 samples.

Results

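Receptor tyrosine kinases were examined in 7 lines of Hodgkin lymphoma (HL), HDLM-2, L-428, L-1236, L-540, KM-H2, U-HO1 and SUP-HD1, each profiled on 1 oligonucleotide array. The list held 46 kinases, and 44 of them were read by probe sets that the annotation gives to that gene alone, in all 149 probe sets of the array. The other 2 were DDR1, whose 4 probe sets are shared with another gene, and EPHB2, for which no probe set was used here. A probe set pools several short probes to neighbouring parts of a transcript, and the level of a kinase was taken from the one whose mean over the lines was highest. All 7 lines are established HL cell lines, for which the labels name no treatment, no genotype and no control. The arrays came from 2 laboratories, and since the sources do not assign the lines to them, laboratory and line cannot be told apart. Expression levels are log2 values, so that a difference of 1 is a doubling, and levels were compared between lines within a probe set, never between genes. With a single array per line there was no replicate and no test between lines. Where a gene has several probe sets, the SD between them, each centred on its mean over the lines, was 0.569 and served as the technical spread. It covers genes below background too. This spread shows how far probe sets disagree, not how far repeat arrays of a line would differ, and serves only as a rough scale.

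Receptor tyrosine kinases are cell surface proteins that pair up when a ligand binds, phosphorylate each other and pass the signal on through RAS and ERK, PI3K and AKT, and phospholipase C. They are best known as growth and survival receptors of epithelial, mesenchymal, endothelial and neural cells, and a few of them, such as KIT, FLT3 and CSF1R, act in blood cell precursors and macrophages. The tumour cells of HL, called Hodgkin/Reed-Sternberg cells, descend from lymphocytes that have lost much of their lineage programme, and several receptor kinases are known to be expressed in them out of place.

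An array value has no detection call of its own, so a background level was set for each array at the 95th percentile of 107 probe sets of olfactory receptor genes, which blood cells are not known to use. This background was 5.59 in L-1236 and 4.49 (SUP-HD1) to 4.86 (HDLM-2) in the other lines, so low levels were hardest to read in L-1236. The spread between probe sets of a gene was 0.699 for L-1236, 0.721 for U-HO1, and ran from 0.468 to 0.547 elsewhere. In U-HO1, the 3′ probe set of ACTB exceeded the 5′ one by 2.11, against 0.06 to 0.54 in the other lines, and the level at the 18S ribosomal RNA probe sets was 11.12 against 5.23 to 7.06. All 10 markers of Hodgkin/Reed-Sternberg cells were above background in 5 of the lines, while TRAF1 was below it in L-1236 and TNFRSF8, which encodes the defining antigen CD30, stood at 4.36 in SUP-HD1, also below background. Of 10 fibroblast markers, 3 to 5 were above background per line. LUM, POSTN and COL3A1 were so in none, and FBN1, ACTA2 and COL1A1 in all 7. Of 9 myeloid and mast-cell markers, 1 or 2 were above background per line. LYZ, MPO and S100A8 were so in none, but ITGAM reached 8.22 in KM-H2 and 7.13 in HDLM-2. Of 10 endothelial markers, 1 to 6 were above background per line. VWF and CDH5 were so in none, but EGFL7 was in 6 lines and ESAM reached 6.64 in L-540. Of 10 epithelial markers 1 to 4 were so. EPCAM never was, but KRT8 was in all 7 lines and CDH1 reached 8.78 in HDLM-2. Beside these counts, 43.5% (L-1236) to 58.8% (SUP-HD1) of all genes were above background per line.

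Among the lines, SUP-HD1 had the most receptor kinases above background and L-1236 the fewest, though KM-H2 had the most with the 90th percentile as background, 26 against 25, and HDLM-2 the fewest with the 99th, 6 against 10. In SUP-HD1, 23 of the 44 kinases (52.3%) passed, that is, were above background, beside 58.8% of all 19775 genes. In L-540, 20 kinases (45.5%) were above background beside 57.9% of all genes, and in U-HO1, 20 (45.5%) beside 57.4%. KM-H2 had 17 (38.6%) beside 54.1% of all genes, L-428 had 16 (36.4%) beside 56%, and HDLM-2 had 14 (31.8%) beside 53.4%. In L-1236, where the background was highest, 12 kinases (27.3%) passed beside 43.5% of all genes. In every line the share of the kinases was below that of all genes, a difference that was not tested, and L-1236 and SUP-HD1 held the lowest and the highest place for all genes too. RNA was taken from whole cultures, so that fewer cells with a transcript and less of it per cell cannot be told apart. Of the 31 kinases above background in at least 1 line, 28 had their highest level above background. This was in SUP-HD1 for 8, in L-1236 for 6, in KM-H2 and in L-540 for 5 each, in L-428 for 2, and in HDLM-2 and in U-HO1 for 1 each. The highest line was not counted for all genes, so whether the kinases differ from other genes in this was not tested.

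**Figure D1:**
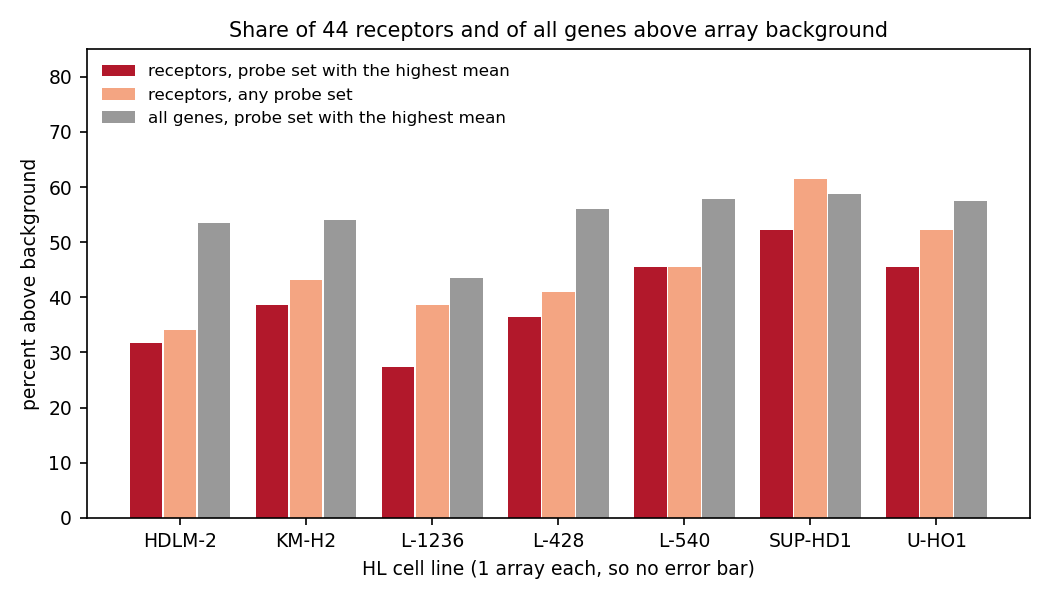
Percent of the 44 receptor kinases above array background in each HL cell line, by the probe set with the highest mean or by any probe set, and the percent of all 19775 genes by the probe set with the highest mean. There is 1 array per line and so no error bar, and the bars by the probe set with the highest mean run from 27.3% in L-1236 to 52.3% in SUP-HD1 for the kinases.

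A kinase that had any of its probe sets above background was counted as well, a choice made after the values were seen. By this count, 27 kinases (61.4%) passed in SUP-HD1, beside 59.8% of all genes. U-HO1 had 23 (52.3%) beside 58.5%, L-540 had 20 (45.5%) beside 58.6%, and KM-H2 had 19 (43.2%) beside 54.9%. L-428 had 18 (40.9%) beside 56.7%, L-1236 had 17 (38.6%) beside 45.4%, and HDLM-2 had 15 (34.1%) beside 54%. SUP-HD1 was again the line with the most kinases, and the fewest were then in HDLM-2 in place of L-1236.

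Across the lines, 31 of the 44 kinases (70.5%) were above background in at least 1 line, beside 73.3% of all genes. Only 5 kinases (11.4%), FLT1, FGFR2, DDR2, NTRK3 and RYK, were above background in all 7 lines, beside 34.6% of all genes. Another 8 were above background in 5 or 6 lines, 13 in 2 to 4 lines and 5 in 1 line. The distance from the lowest to the highest line was 2 or more for 19 of the 31 (61.3%), beside 50.2% of all genes above background in at least 1 line. With levels below background raised to it, 15 kinases reached 2 or more. The median distance was 2.56 for the 31 kinases and 2 for all genes, and 1.87 against 1.67 once levels were raised to background. A distance of 5 or more was found for 4 kinases, PDGFRA, MET, EPHB1 and IGF1R, beside 5.97% of all genes.

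**Figure D2:**
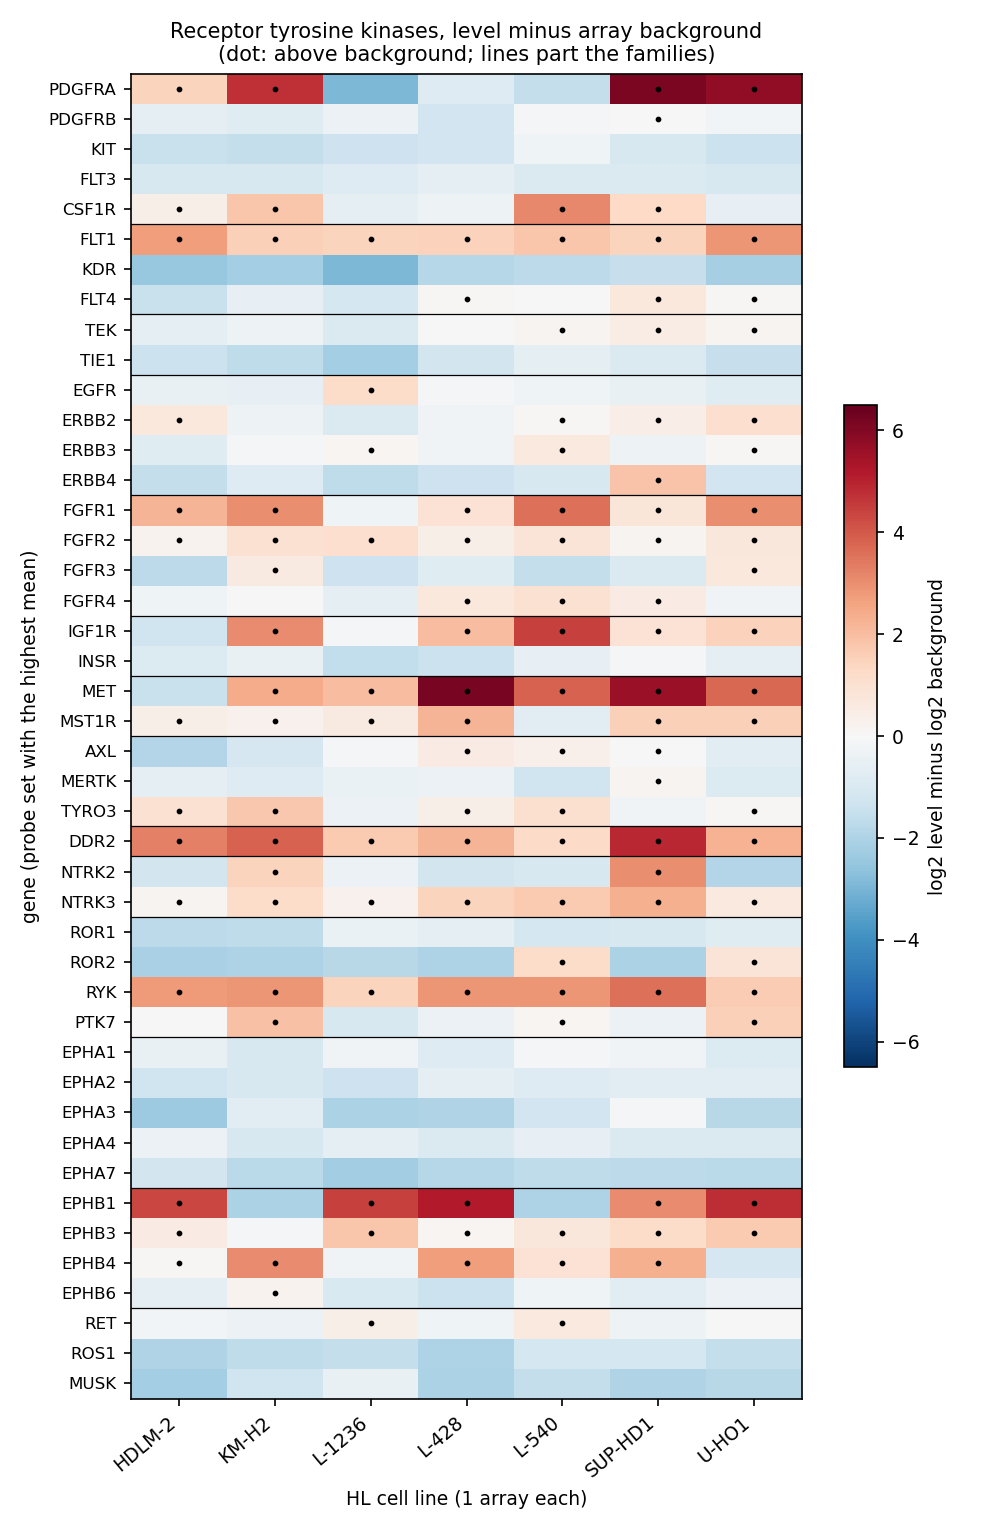
Level of each of the 44 receptor kinases (rows, grouped by family) minus the background of the array, in log2 units, in the 7 HL cell lines (columns, 1 array each). Dots mark levels above background, and the darkest fields are PDGFRA in SUP-HD1, at 6.12 over background, and MET in L-428, at 6.16.

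PDGFRA, the receptor for platelet-derived growth factors that is normally found on mesenchymal cells, had the widest distance of all the kinases, 7.94. Its level was 10.61 in SUP-HD1, 10.36 in U-HO1, 9.59 in KM-H2 and 6.29 in HDLM-2, and below background at 3.9 in L-428, 2.95 in L-540 and 2.67 in L-1236. SUP-HD1 and U-HO1 differed by 0.25, less than the technical spread, and KM-H2 and HDLM-2 followed with larger gaps. The 4 probe sets of PDGFRA did not show this alike, since 2 were above background in no line. At the remaining probe set the level was 7.13 in SUP-HD1, 7.12 in HDLM-2, 6.69 in U-HO1, 6.67 in KM-H2, 6.48 in L-1236, 5.33 in L-428 and 4.29 in L-540. There L-1236 and L-428 were above background too, and the lines lay within 2.84.

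MET, the receptor for hepatocyte growth factor, was expressed in every line but HDLM-2. Its level was 10.91 in L-428, 10.12 in SUP-HD1, 8.34 in L-540, 8.30 in U-HO1, 7.61 in L-1236 and 7.27 in KM-H2, and 3.39 in HDLM-2, below background, a distance of 7.52. L-428 exceeded SUP-HD1 by 0.79. That is more than the technical spread of a single level, but the spread of a difference between lines is wider, so their order was not settled by it. L-540 and U-HO1 differed by less than the technical spread. L-428 was highest at all 4 probe sets, with 9.98, 9.33 and 8.58 at the other 3, and SUP-HD1 came second at each, with 9.29, 8.39 and 7.50. No probe set of MET was above background in HDLM-2. In U-HO1, where 3′ and 5′ signals differed most, 2 of the 4 were.

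EPHB1, a receptor for ephrin-B ligands that guides the contact of neighbouring cells, divided the lines into 5 that expressed it and 2 that did not. Its level was 10.02 in L-1236, 9.89 in L-428, 9.38 in U-HO1, 9.21 in HDLM-2 and 7.58 in SUP-HD1, against 2.76 in KM-H2 and 2.52 in L-540, a distance of 7.50. All 3 probe sets were above background in the same 5 lines and below it in KM-H2 and L-540. L-1236 and L-428 differed by 0.13, within the technical spread, and changed places at another of the probe sets, where L-428 had 8.75 and L-1236 8.11.

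IGF1R, the receptor for insulin-like growth factor 1, was highest in L-540 and below background in HDLM-2 and L-1236. Its level was 8.97 in L-540, 7.93 in KM-H2, 6.77 in L-428, 6.11 in U-HO1, 5.48 in L-1236, 5.42 in SUP-HD1 and 3.56 in HDLM-2, a distance of 5.41. The same 5 lines were above background at 3 of its 5 probe sets, and the other 2 probe sets were above background in no line. L-540 was highest at those 3. U-HO1 stood second at one of them, with 8.19 against 8.27 in L-540, and second at another, with 7.65 against 8.17, so its place depended on the probe set. INSR, the receptor for insulin, was above background in no line by the probe set with the highest mean, at 3.36 to 4.43, and at one other probe set it reached 4.51 in SUP-HD1, just above background.

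**Figure D3:**
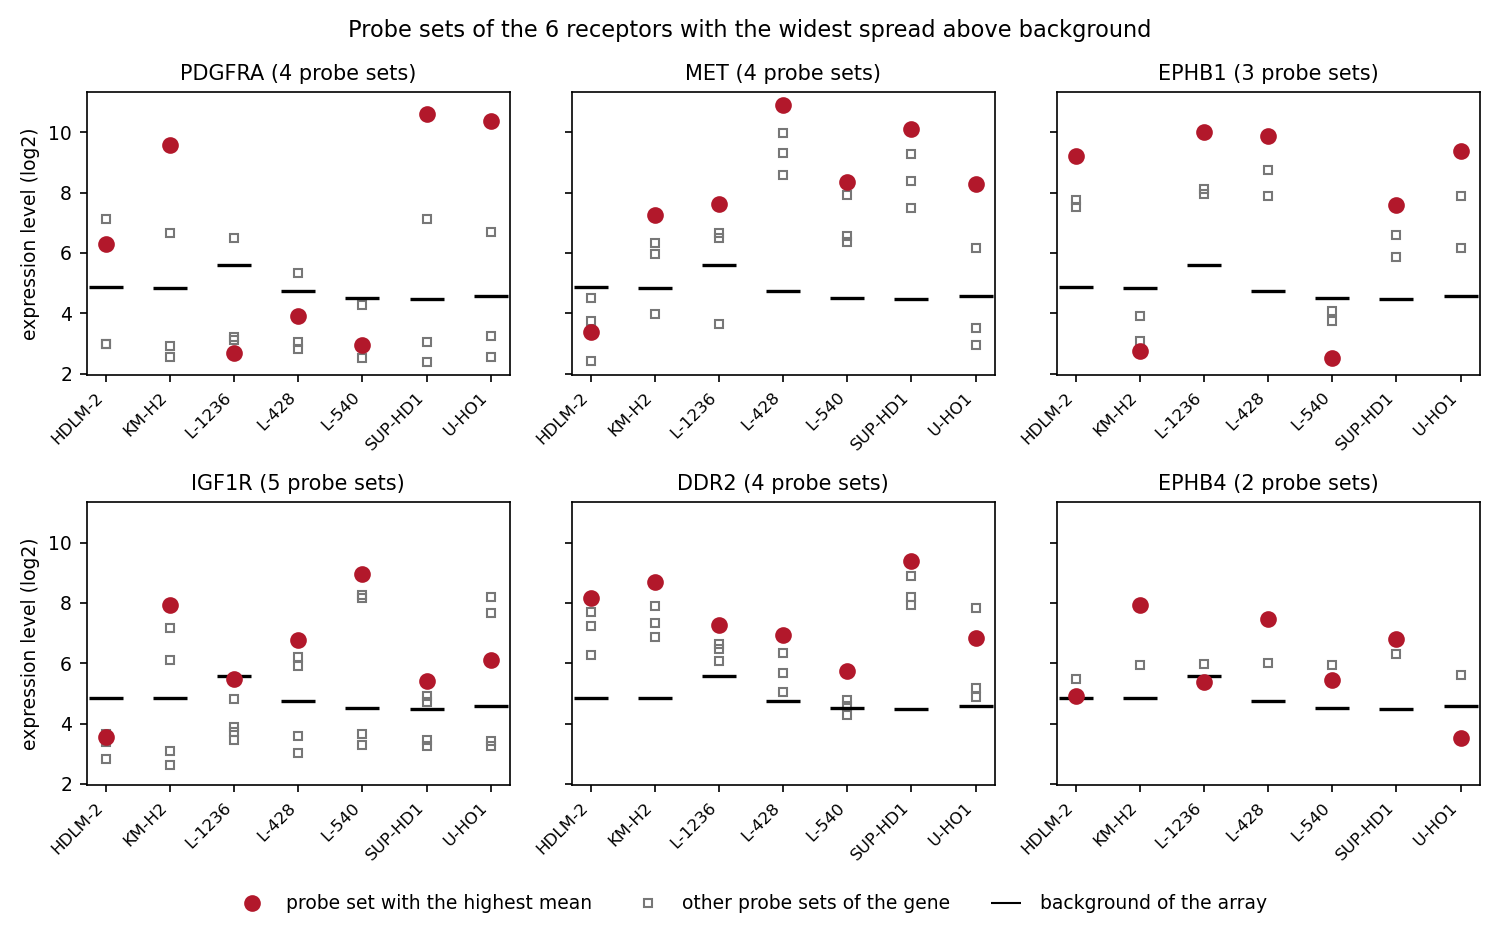
Expression level (log2) of every probe set of PDGFRA, MET, EPHB1, IGF1R, DDR2 and EPHB4, the 6 kinases with the widest distance after levels were raised to background, in the 7 HL cell lines. Filled circles show the probe set of the highest mean, open squares the other probe sets and dashes the background of the array, and all 3 EPHB1 probe sets lie below the dash in KM-H2 and L-540.

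The stretches before the start of these 4 genes are shown because these genes had the widest distances between lines. They are the 250 bases upstream of each start that RefSeq gives on GRCh38.p14, 5′ to 3′ on the gene's strand, which is the plus strand for all of them, and capitals mark CG pairs, the sites that DNA methylation uses. PDGFRA has 2 starts in that table, at chr4:54229043-54229292 and chr4:54233710-54233959, and MET, EPHB1 and IGF1R have 1 each, at chr7:116671946-116672195, chr3:134795010-134795259 and chr15:98648289-98648538.
PDGFRA first start: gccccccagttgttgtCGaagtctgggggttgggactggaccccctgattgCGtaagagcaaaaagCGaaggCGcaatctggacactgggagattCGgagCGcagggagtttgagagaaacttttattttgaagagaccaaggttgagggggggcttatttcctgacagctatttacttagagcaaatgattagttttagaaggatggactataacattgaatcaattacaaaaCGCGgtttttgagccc
PDGFRA second start: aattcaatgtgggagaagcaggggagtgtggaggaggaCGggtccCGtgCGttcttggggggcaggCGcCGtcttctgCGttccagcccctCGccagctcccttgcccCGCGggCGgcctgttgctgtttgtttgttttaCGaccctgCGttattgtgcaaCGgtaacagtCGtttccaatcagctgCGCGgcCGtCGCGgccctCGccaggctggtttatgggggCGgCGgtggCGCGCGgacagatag
MET: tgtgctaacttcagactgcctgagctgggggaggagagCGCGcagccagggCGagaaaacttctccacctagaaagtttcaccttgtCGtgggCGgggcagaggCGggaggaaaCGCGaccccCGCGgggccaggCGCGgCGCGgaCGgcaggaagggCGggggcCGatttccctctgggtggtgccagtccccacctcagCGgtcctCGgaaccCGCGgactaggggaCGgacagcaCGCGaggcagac
EPHB1: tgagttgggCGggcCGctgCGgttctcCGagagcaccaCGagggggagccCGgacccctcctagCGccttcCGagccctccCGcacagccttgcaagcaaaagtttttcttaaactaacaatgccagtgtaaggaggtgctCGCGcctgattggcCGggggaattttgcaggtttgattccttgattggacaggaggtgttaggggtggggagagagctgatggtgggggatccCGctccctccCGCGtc
IGF1R: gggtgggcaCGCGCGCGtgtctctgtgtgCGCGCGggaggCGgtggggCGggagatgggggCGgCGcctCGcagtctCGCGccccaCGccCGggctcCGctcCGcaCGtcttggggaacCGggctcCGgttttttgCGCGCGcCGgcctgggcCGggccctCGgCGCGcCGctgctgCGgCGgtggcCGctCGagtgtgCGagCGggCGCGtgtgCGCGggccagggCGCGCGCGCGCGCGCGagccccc
The CG pairs numbered 8 and 25 at the first and second start of PDGFRA, 24 for MET, 15 for EPHB1 and 48 for IGF1R, against a median of 16 over 22199 starts of coding genes. The letters GGGCGG, on either strand, were in 4 of the 5 stretches, all but the first start of PDGFRA, and in 53.7% of the starts of coding genes. No methylation and no factor binding was measured in these lines here.

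The remaining receptors of the PDGF receptor class gave low levels, apart from CSF1R. CSF1R, the receptor of macrophages for colony stimulating factor 1, is read by a single probe set, with 7.65 in L-540, 6.63 in KM-H2, 5.80 in SUP-HD1 and 5.24 in HDLM-2. In L-1236, L-428 and U-HO1 it was below background, at 4.99, 4.43 and 4.05. The summed level over background of the myeloid and mast-cell markers was 4.56 in KM-H2, 3.43 in HDLM-2 and 0.218 to 0.99 in the other lines, L-540 among them at 0.79, so the highest CSF1R level did not come with the highest level of these markers. PDGFRB, which lies next to CSF1R on chromosome 5, passed in SUP-HD1 alone, at 4.51 and by 0.02, and its highest level of 5.20 was in L-1236, below background there. KIT, the receptor for stem cell factor and the next gene to PDGFRA on chromosome 4, was above background in no line, at 3.21 to 4.26. FLT3, a receptor of early blood cells, stayed at 3.55 to 4.74 and was above background in no line.

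The receptors for vascular endothelial growth factors and angiopoietins, which endothelial cells use, gave 1 kinase above background in all lines. FLT1 had 7.60 in HDLM-2, 7.45 in U-HO1, 7.03 in L-1236, 6.39 in KM-H2, 6.30 in L-540, 6.27 in L-428 and 5.91 in SUP-HD1. This rested on 1 of its 6 probe sets, and the other 5 were above background in no line. KDR, the main signalling receptor for VEGFA, was above background in no line, at 2.42 to 2.97. FLT4 passed in L-428, SUP-HD1 and U-HO1, reaching 5.16 in SUP-HD1 with a distance of 1.77, while another FLT4 probe set was above background in L-1236 alone, at 6.04. TEK passed in L-540, SUP-HD1 and U-HO1 with a distance of 0.77 and a highest level of 4.98, and its second probe set was above background in no line. TIE1 was above background in no line, at 3.10 to 3.91.

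Within the ERBB family, the receptors of the epidermal growth factor group, levels depended on the probe set. EGFR, by the probe set with the highest mean, was above background in L-1236 alone, at 6.79, with 4.60 in L-428, 4.36 in HDLM-2, 4.31 in KM-H2, 4.22 in L-540, 4.01 in SUP-HD1 and 3.80 in U-HO1. At 2 other EGFR probe sets KM-H2 stood alone, at 7.78 and 7.82, while L-1236 came next at 3.71 and 4.91, below its background. At 2 further EGFR probe sets only SUP-HD1 was above background, at 4.86 and 4.58. L-1236 was highest at both of these, at 5.56 and 5.31, but below its background. ERBB4 was above background in SUP-HD1 alone, at 6.35, with 3.31 to 3.99 in the other lines. A second probe set of ERBB4 gave 8.72 in SUP-HD1 and at most 3.76 elsewhere, and another gave 5.20 in U-HO1, above background, and 3.45 in SUP-HD1. ERBB2, the receptor without a ligand of its own, passed in HDLM-2, L-540, SUP-HD1 and U-HO1, highest at 5.70 in U-HO1 with a distance of 1.17. Its other probe sets were above background in no line. ERBB3, which has little kinase activity, passed in L-1236, L-540 and U-HO1, highest at 5.74 in L-1236 with a distance of 1.68. Of its 5 probe sets, 2 were above background in U-HO1 and 1 each in L-1236 and L-540.

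FGF receptors were found in all lines. FGFR1 was above background in every line but L-1236, with 8.10 in L-540, 7.86 in KM-H2, 7.60 in U-HO1, 7.07 in HDLM-2, 5.69 in L-428, 5.31 in L-1236 and 5.28 in SUP-HD1. The highest 3 of these lay within 0.569 of one another. In L-1236, 2 of the 7 probe sets of FGFR1 were nevertheless above background. FGFR2, by the probe set with the highest mean, was above background everywhere, with 6.67 in L-1236, 5.82 in KM-H2, 5.34 in L-540, 5.31 in U-HO1, 5.15 in L-428, 5.09 in HDLM-2 and 4.65 in SUP-HD1. That probe set carries the suffix _x_at, which marks probes that can also bind other transcripts, and no other of the 11 was above background in more than 1 line. At 4 of the 11, KM-H2 stood alone at 7.07 to 7.78, and the next line at each was at 3.36 to 4.71. FGFR3 passed in KM-H2 and U-HO1, at 5.43 and 5.28, with a distance of 2.48, and its second probe set was above background in no line. FGFR4 passed in L-428, L-540 and SUP-HD1, reaching 5.52 with a distance of 1.17.

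MST1R, also called RON, the receptor for macrophage-stimulating protein and the relative of MET, was above background in every line but L-540. Its single probe set gave 6.95 in L-428, 6.17 in L-1236, 6.16 in U-HO1, 6.04 in SUP-HD1, 5.24 in HDLM-2, 5.14 in KM-H2 and 3.82 in L-540. As for MET, L-428 was highest, but the line below background was another one.

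DDR2, a receptor for fibrillar collagens, was expressed in all 7 lines. Its level was 9.40 in SUP-HD1, 8.69 in KM-H2, 8.15 in HDLM-2, 7.28 in L-1236, 6.95 in L-428, 6.84 in U-HO1 and 5.75 in L-540, a distance of 3.65. SUP-HD1 was highest at all 4 probe sets and L-540 lowest at all 4. L-1236, L-428 and U-HO1 lay within 0.569 of one another. The summed level over background of the fibroblast markers was 12.98 in HDLM-2, 11.15 in SUP-HD1 and 10.66 in L-540, and 3.60 to 9.78 in the others, so the line with the lowest DDR2 level had a sum above that of 4 other lines, and most of these sums came from FBN1, ACTA2 and THY1.

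The neurotrophin receptors, normally receptors of neurons, were highest in SUP-HD1 by the probe set with the highest mean. NTRK3 was above background in all lines, with 6.80 in SUP-HD1, 6.22 in L-540, 6.18 in L-428, 6.04 in KM-H2, 5.85 in L-1236, 5.20 in U-HO1 and 5.04 in HDLM-2. All 9 NTRK3 probe sets were above background in SUP-HD1, and 3 to 5 were in each of the other lines. SUP-HD1 was highest at 6 of the 9. Besides the probe set with the highest mean, only 2 were above background in all 7 lines, and both carry the suffix _x_at. L-1236 was highest at both of these, at 6 and 6.23, with SUP-HD1 at 5.64 and 5.80. At 2 further NTRK3 probe sets SUP-HD1 stood alone, at 6.13 and 6.53, with every other line at 3.48 or less. NTRK2 passed in SUP-HD1 and KM-H2, at 7.53 and 6.29, with 5.20 in L-1236, below its background, and 2.70 to 3.66 in the remaining lines. For NTRK2, 3 of the 6 probe sets were above background in these same 2 lines and in no other.

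The members of the TAM family, AXL, MERTK and TYRO3, bind GAS6 and help to clear dying cells. MERTK and TYRO3 bind protein S as well. Of this family, TYRO3 passed in 5 lines. Its level was highest in KM-H2, at 6.61, and it was below background in SUP-HD1, at 4.27, and in L-1236, at 5.23. AXL passed in L-428, L-540 and SUP-HD1, although its highest level, 5.53, was in L-1236 and below the background there. MERTK passed in SUP-HD1 alone, at 4.65, and at another probe set in L-1236 as well, at 6.29. The AXL distance was 2.56 and that of TYRO3 2.34, and the second probe set of each was above background in no line.

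Among the receptors that bind WNT proteins, RYK was above background in all lines. RYK had 8.09 in SUP-HD1, 7.73 in KM-H2, 7.64 in HDLM-2, 7.61 in L-428, 7.38 in L-540, 7.03 in L-1236 and 6.22 in U-HO1. All 3 probe sets were above background in every line, apart from 1 of them in L-1236. ROR2 was above background in L-540 and U-HO1, at 5.68 and 5.43, with 2.45 to 3.78 elsewhere. PTK7, which lacks kinase activity, passed in KM-H2, U-HO1 and L-540, at 6.77, 6.16 and 4.65, and its second probe set was above background in no line. ROR1, a surface antigen of some B-cell leukaemias, was above background in no line at any of its 3 probe sets.

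The ephrin receptors are divided by the class of their ligands. Of the ephrin-A receptors, EPHA1, EPHA2, EPHA3, EPHA4 and EPHA7, none of the 5 was above background in its read probe set, that of the highest mean, whereas all 4 measured ephrin-B receptors were so in at least 1 line. For EPHA4 this reading was incomplete, since 3 of its 5 probe sets were above background in HDLM-2, at 6.21, 5.71 and 5.15, and in no other line. EPHA3 reached 5.56 in KM-H2 and 4.65 in SUP-HD1 at another probe set, both above background. Beside EPHB1, EPHB4 had 7.92 in KM-H2, 7.46 in L-428, 6.80 in SUP-HD1, 5.43 in L-540, 5.38 in L-1236, 4.93 in HDLM-2 and 3.52 in U-HO1. EPHB4 thus was high in KM-H2, where EPHB1 was below background, and below background in U-HO1, where EPHB1 was high. The second EPHB4 probe set was above background in all 7 lines with a distance of 0.83, so the low value in U-HO1 was not seen there. EPHB3 passed in all lines but KM-H2, highest in L-1236 at 7.38 with a distance of 2.65. At the second EPHB3 probe set L-1236 was below background, at 4.28, and HDLM-2 was highest, at 5.57, with L-540 and U-HO1 also above background. EPHB6, without kinase activity, passed in KM-H2 alone at 5.09.

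RET, the receptor for the glial cell line-derived factors, was above background in L-1236, at 5.95, and in L-540, at 5.14, by a probe set with the suffix _x_at, with a distance of 1.77. A second RET probe set was below background in both and above it in L-428, U-HO1 and SUP-HD1, at 5.44, 5.29 and 4.72, so the lines changed with the probe set. ROS1 and MUSK, a receptor of the neuromuscular junction, were above background in no line. By the probe set with the highest mean, 13 kinases passed in no line. L-1236 gave the highest value for 8 of them, a count that was not made for all genes. For 10 of the 13, KIT, FLT3, KDR, TIE1, ROR1, EPHA1, EPHA2, EPHA7, ROS1 and MUSK, no probe set was above background in any line, and the other 3 were INSR, EPHA3 and EPHA4.

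Kinases with a single outstanding line were few by the probe set with the highest mean. EGFR in L-1236 and ERBB4 in SUP-HD1 were the 2 of 31 (6.45%) whose highest line was 2 or more above every other, by 2.19 and 2.36, beside 4.66% of all genes. Without L-1236 the count was 1, ERBB4, and without KM-H2 it was 4, with IGF1R in L-540 and NTRK2 in SUP-HD1 added. For these 2 counts the probe set with the highest mean was chosen anew from the lines kept. A second count, chosen after the values were seen, asked for the same line at 2 or more probe sets of a gene. It named 5 of the 35 kinases with at least 2 probe sets (14.3%), beside 1.88% of all such genes. These were EGFR and FGFR2 in KM-H2, EPHA4 in HDLM-2, and ERBB4 and NTRK3 in SUP-HD1. The kinases have up to 11 probe sets, and how far the number of probe sets per gene moves these shares was not tested. For EGFR, the line named thus changed with the probe set, from L-1236 to KM-H2.

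**Figure D4:**
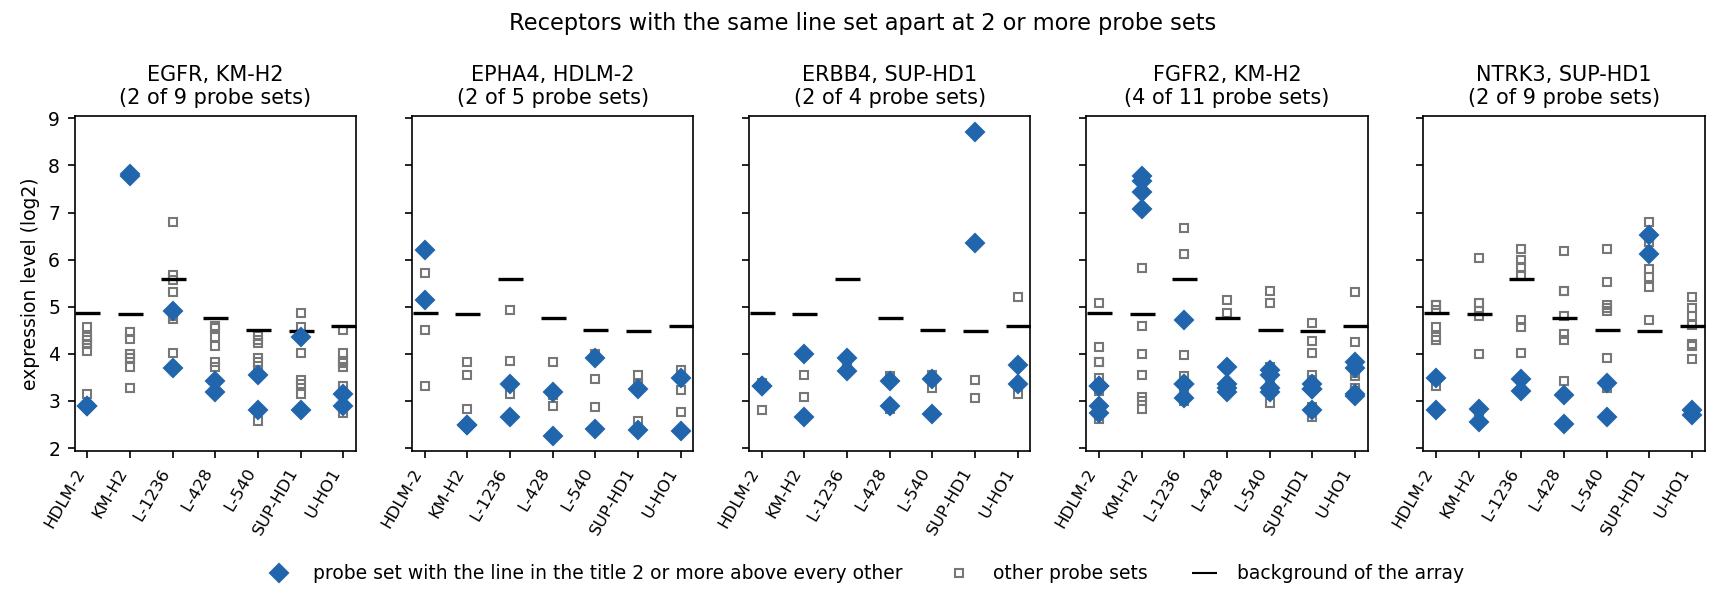
Expression level (log2) of every probe set of EGFR, EPHA4, ERBB4, FGFR2 and NTRK3 in the 7 HL cell lines, with filled diamonds for the probe sets at which the line named above the panel is 2 or more above every other line and above background, open squares for the other probe sets and dashes for the background of the array. The diamonds lie above the dash in KM-H2 alone for EGFR, at 7.78 and 7.82, and for FGFR2, at 7.07 to 7.78.

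Ligands of these receptors were read in the same arrays to see which lines expressed both partners. Of 52 ligands measured, 40 were above background in at least 1 line and 9 in all lines, beside 73.3% and 34.6% of all genes, and 21 of the 40 had a distance of 2 or more, beside 50.2%. Of 70 pairs of receptor and ligand, 35 were above background together in at least 1 line. Pairs of other genes were not counted, and 43.5% (L-1236) to 58.8% (SUP-HD1) of all genes passed per line. Whether these pairs pass together more often than other genes was thus not tested. Such pairs numbered 22 in SUP-HD1, 18 in KM-H2, 17 in U-HO1, 14 in L-540, 10 in HDLM-2, and 8 each in L-1236 and L-428. SUP-HD1 also had the most receptors above background, 23, so the count of pairs is not independent of that count.

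HGF, the ligand of MET, was above background in 2 lines. It had 10.85 in SUP-HD1 and 5.47 in KM-H2, with 3.82 to 5.29 in the other lines. All 5 HGF probe sets were above background in SUP-HD1 and 4 of the 5 in KM-H2, and none in any other line. In SUP-HD1 the MET level of 10.12 was second to that of L-428, where HGF was at 4.10, below background.

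IGF1, the ligand of IGF1R, had 9.51 in SUP-HD1, 8.32 in HDLM-2, 6.85 in L-540 and 4.77 in U-HO1, and was below background in the other 3 lines. In HDLM-2, where IGF1 was above background at 4 of 5 probe sets, IGF1R was at 3.56, below background. L-540, with the highest IGF1R level, had 2 of the 5 IGF1 probe sets above background. KITLG, the ligand of KIT, had 8.90 in U-HO1, 7.54 in L-1236 and 2.70 to 3.55 in the other lines, while KIT was above background in none of the lines. In both lines 1 of its 4 probe sets was above background.

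WNT5A, which binds ROR2 and RYK, had 10.85 in KM-H2, 10.37 in U-HO1, 6.75 in SUP-HD1, 6.72 in L-428 and 6.68 in L-540, and was below background in L-1236 and HDLM-2, at 4.19 and 2.97. Together with ROR2 it was above background in L-540 and U-HO1. EFNB2, a ligand of EPHB1, EPHB3 and EPHB4, had 8.16 in SUP-HD1, 7.41 in KM-H2, 7.11 in U-HO1 and 6.19 in L-1236. It was below background in L-540, HDLM-2 and L-428, at 3.91, 3.31 and 2.70, so of the 5 lines with EPHB1, those with EFNB2 as well were SUP-HD1, U-HO1 and L-1236. Both EFNB2 probe sets were above background in SUP-HD1 and KM-H2, but only 1 of the 2 in U-HO1 and in L-1236.

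For PDGFRA, the ligand PDGFA was above background together with the receptor in KM-H2, SUP-HD1 and U-HO1, and PDGFB in these lines and HDLM-2. PDGFC passed in U-HO1 alone, at 6.75. For CSF1R, both ligands, CSF1 and IL34, were above background in all 7 lines, CSF1 highest in L-428 at 9.54, where CSF1R was below background. FLT1 with VEGFA and with PGF, and DDR2 with COL1A1, were above background together in all 7 lines. The probe sets read for PDGFB, PGF, IL34, MST1, IGF1, NRG1, EFNB3 and COL1A1 carry the suffix _x_at, that of PDGFB being the only 1 of its 4 above background in any line, and in COL1A1 the lines differed by no more than 0.7.

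**Figure D5:**
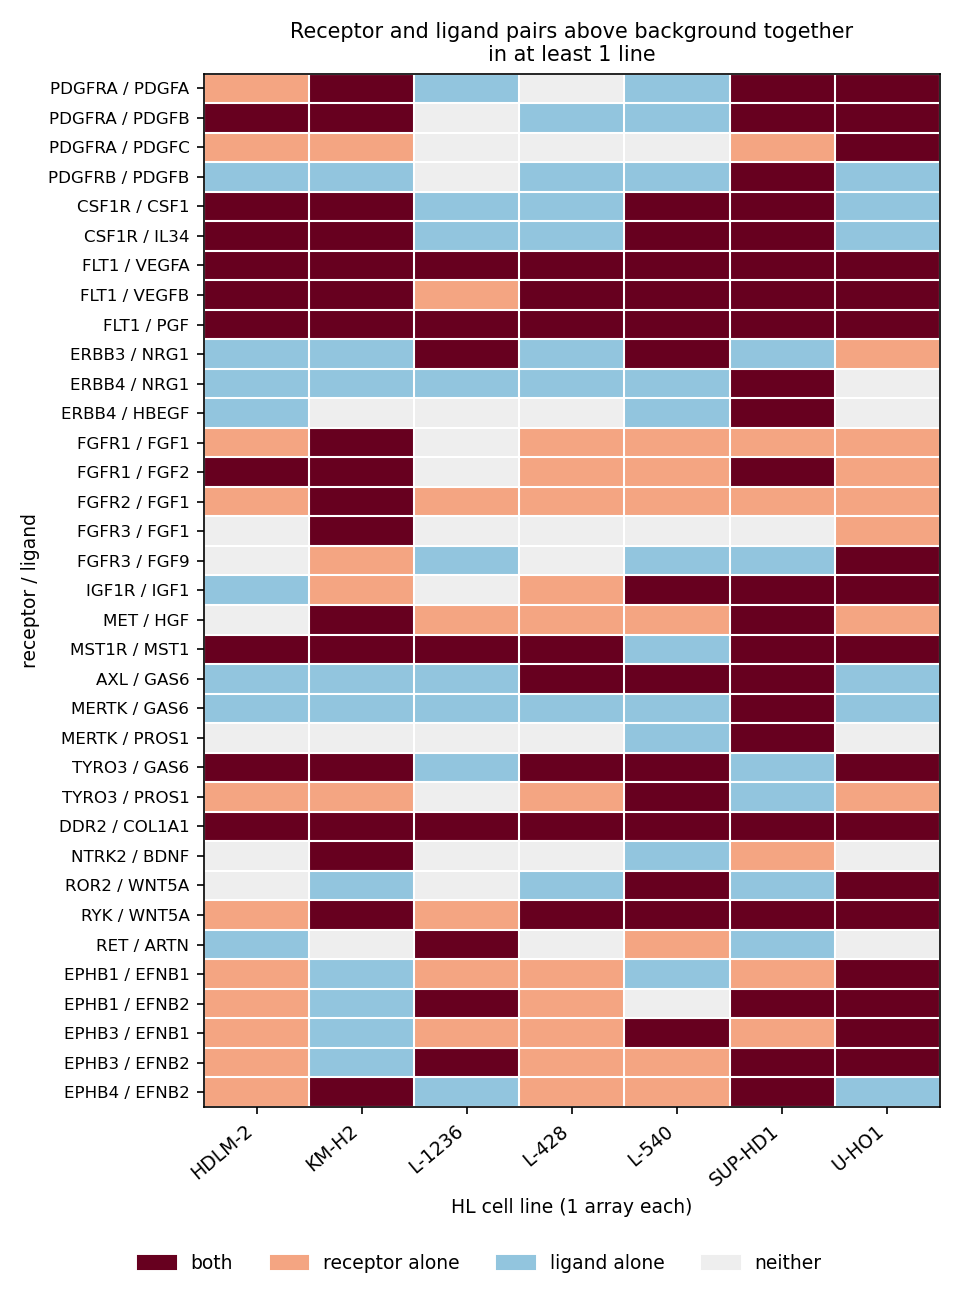
The 35 pairs of receptor and ligand (rows) that were above array background together in at least 1 HL cell line (columns, 1 array each), with colours for both partners, the receptor alone, the ligand alone or neither. The dark fields of both partners number 22 in SUP-HD1 and 8 in L-428.

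Adaptors and effectors carry the signal of the receptors inside the cell. All 34 measured adaptors and effectors were above background in at least 1 line, beside 73.3% of all genes, and 21 of them in all lines, beside 34.6%, and 20 had a distance of 2 or more, beside 50.2%. The widest were IRS2, an adaptor of insulin and IGF1 receptors, from 3 in KM-H2 to 9.23 in U-HO1, and the SRC family kinase YES1, from 2.67 in HDLM-2 and KM-H2 to 7.86 in L-428. FYN, another SRC family kinase, ran from 3.05 in HDLM-2 to 8 in KM-H2, and VAV3 was above background in SUP-HD1 alone, at 7.77. Of 35 negative regulators measured, 32 were above background in at least 1 line, 9 in all, and 21 of the 32 had a distance of 2 or more, to be read beside the same shares of all genes. SOCS1, an inhibitor of JAK kinases, was at 7.52 to 10.12 in 6 lines and at 2.87 in U-HO1. ERRFI1, an inhibitor of ERBB receptors, was at 9.12 in U-HO1 and at 2.76 to 3.21 in the others. SOCS3 ran from 4.38 in KM-H2 to 10.63 in L-540, and the receptor phosphatase PTPRK from 2.72 in L-540 to 8.75 in U-HO1.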

How the data were processed

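Total RNA of 7 HL cell lines was hybridised to Affymetrix HG U133 Plus 2.0 arrays, 1 per line, each line forming its own group. The authors used RMA for background correction, then quantile normalization (affy and limma, versions not given in the sources used here) and deposited log2 levels per probe set, 54675 per array, without a value missing. The methods describe ratios to the sample mean, but the deposited values are levels. Arrays carry no read depth, and their number, 1 per line, limits the precision.

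Of the probe sets, 41097 were annotated with 1 gene, 1801 with several and 11777 with none. Only the first were used, with symbols updated by gene identifier from RefSeq (GRCh38.p14), which gave 19775 genes. The 107 olfactory receptor probe sets left out pseudogenes. Members and lists were chosen with earlier results of these data known. The rule for named genes gives every kinase, up to 4 widest members of other lists, and ligands as pairs. Promoter bases are from RefSeq. The calls were run on simulated data to check that the code follows its definitions, which does not test how far probe sets disagree. Python 3.11.15, pandas 2.3.3, numpy 2.4.6 and matplotlib 3.10.9 were used.

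No test between lines was made. The alternatives were the most variable probe set of a gene, the mean or the median of its probe sets, no _x_at or _s_at probe sets, the 90th or 99th percentile as background, arrays centred on their medians, a second quantile normalization, thresholds of 1 or 3 in place of 2, levels raised to background, and lines left out. Counts by any or 50% or more of the probe sets, by the same line at 2 or more probe sets, and with olfactory pseudogenes included (135 probe sets) were added after the data were seen.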

Additional observations from a re-analysis of the deposited data

Results flagged for a closer look

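In each of the 44 measured kinases, the gap between the highest or the lowest line and its neighbour was set against the distance over the 7 lines, and 5 kinases held a line that stood apart by Dixon's criterion. The nominal rate of this criterion is about 1 in 20. The share of all genes that meet it was not counted, so an excess among the kinases was not tested. EGFR in L-1236 was highest, at 6.79, and ERBB4 in SUP-HD1 was highest, at 6.35, both above background. EPHA1 and MUSK in L-1236 were highest, at 5.34 and 5.09, and INSR in L-428 was lowest, at 3.36, all below the background of their arrays. L-1236 holds 3 of the 5, and it was the array with the highest background, 5.59. For EGFR the other lines had 3.80 to 4.60 at this probe set, and KM-H2 was highest at 2 other probe sets. For ERBB4 a second probe set had SUP-HD1 highest too, at 8.72.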

How the results depend on the processing

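Of 172 counts under alternatives, 131 stayed within 1.5 times the count reported and 41 did not. No paired analysis was possible because the 7 lines have 1 array each. With the mean of all probe sets, the kinases above background numbered 7 in L-1236, 8 in L-428, 10 in L-540, 15 in SUP-HD1 and 11 in U-HO1, with 2 in all lines, 12 at a distance of 2 or more, 0 with a line 2 or more above every other, and 21 pairs. With the median there were 11 in KM-H2, 7 in L-1236, 8 in L-428, 11 in L-540 and 11 in U-HO1, with 2 in all lines, 1 with a line apart, and 22 pairs. Without _x_at and _s_at probe sets, which left 37 kinases, there were 9 in HDLM-2, 11 in KM-H2, 7 in L-1236, 12 in L-540 and 13 in U-HO1, with 2 in all lines and 13 pairs. With the largest variance, 2 were above background in all lines and 5 had a line apart. The 90th percentile as background gave 26 in KM-H2, above the 25 of SUP-HD1, and 20 in L-1236 and in HDLM-2. The 99th gave 6 in HDLM-2, below the 10 of L-1236, and 3 in all lines. With olfactory pseudogenes, HDLM-2 had 8, below the 12 of L-1236, and 3 were in all lines. The call by 50% or more of the probe sets gave 7 in L-1236 and 3 in all lines. A distance of 3 in place of 2 was reached by 11. A line stood apart in 6 kinases with a margin of 1, in 0 with 3, in 0 with levels raised to background, and in 5 by the same line at 2 or more probe sets. With single lines left out, that count ran from 1, without L-1236, where EGFR was lost, to 4, without KM-H2, where IGF1R and NTRK2 joined. In all runs with lines left out, the probe set with the highest mean was chosen anew from the lines kept. Without L-1236 and U-HO1 together, no count moved by over 1.5 times. There 32 kinases were above background in at least 1 line, against 30 with the probe sets of the main count kept. Of 257 distances of single kinases, 87 moved by more than the technical spread, 72 of them downwards and 15 upwards. What limits low levels is signal over background, most of all in L-1236.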

Other observations

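Of 12 receptor tyrosine kinases outside the list, 11 were measured. Of these, 8 were above background in at least 1 line, beside 73.3% of all genes, and 2 in all lines, beside 34.6%. The 2 were AATK and LMTK2, named here after their values were seen. STYK1, a kinase with a membrane anchor and no ligand-binding part, had the widest distance, 3.39, with 5.97 in HDLM-2, 5.91 in SUP-HD1 and 2.58 to 3.12 in the other lines. EPHA10 was above background in 6 lines and reached 6.84 in SUP-HD1 and 6.76 in L-1236. ALK, named after its values were seen, passed the background in U-HO1 alone, at 4.61 against a background of 4.59.

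Of the kinases on the list, 43 have a start in the RefSeq promoter table, with 72 starts in all. The 250 bases before these starts held 0 to 48 CG pairs with a median of 15, against 16 over the 22199 starts of coding genes. GGGCGG on either strand was found at 45 of the 72 starts (62.5%), against 53.7% of the starts of coding genes. Among the kinases above background in all 7 lines, CG pairs numbered 0 to 3 at the 3 starts of DDR2. They numbered 25 for FLT1, 23 for NTRK3, 34 for RYK and 3 to 42 at the 5 starts of FGFR2. A link between CG pairs and level was not tested.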
